A study of Bos taurus with 22 samples.

Results

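The jejunal mucosa of 11 vehicle-injected Holstein steers was divided by how much RNA of B cell follicles it contained. For each steer a follicle score was taken as the mean of log2(CPM + 1) over 5 genes, MS4A1, CD79A, CD79B, CR2 and CXCL13, where CPM is the count of a gene per 1000000 counts of its library. The 6 highest scores formed the follicle-rich group and the 5 lowest the follicle-poor group, out of 22 steers in the series. The members of each group were therefore chosen by measured RNA, and the word follicle stands for this score alone, since no tissue section was used here.

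The steers were 10 to 12 months old and received an abomasal infusion of raw corn starch, 3.94 g per kg body weight and day, in every group. Control steers (n = 5) had water and Casein steers (n = 6) had casein at 1.3 g per kg and day in the infusion, and both were injected under the skin with bovine serum albumin (BSA), the vehicle, for 7 d. The remaining 11 steers had the same infusions with glucagon-like peptide 2 (GLP-2), a gut growth hormone, at 100 µg per kg and day (GLP-2, n = 5, and Casein + GLP-2, n = 6). Each steer gave 1 library from mucosa scraped off the jejunal wall with a glass slide, a method that collects epithelium together with an unmeasured amount of the tissue below it.

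The small intestine of cattle holds lymphoid follicles in Peyer's patches and as single nodules. In a follicle, B cells gather around stromal cells that secrete chemokines, divide and mutate their antibody genes in the germinal centre, and are covered by a specialised epithelium with M cells that take up particles from the lumen. In such bulk tissue, fewer cells of a type and less RNA per cell cannot be told apart.

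The follicle-rich group held 4 Control and 2 Casein steers and the follicle-poor group 1 Control and 4 Casein steers, with no difference between infusions detected (Fisher's exact test, 2-sided p = 0.242). Body weight was 242.65 ± 19.6 kg (SD, n = 6) against 254.46 ± 19.7 kg (n = 5), a difference of -11.8 kg that did not pass the test (exact permutation test, 2-sided p = 0.346). The total count per library ranged from 11011029 to 20655744 in follicle-rich and from 9003688 to 23666186 in follicle-poor steers (exact permutation p = 0.632). The smallest p these groups allow is 0.00216. The epithelial markers EPCAM and VIL1 were well above 0 in all 11 libraries, as the label of jejunal mucosa requires.

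The score was 8.34 in Casein 3, 8.02 in Control 3, 7.19 in Control 1 and 7.13 in Control 5, then 4.57 in Casein 1 and 4.27 in Control 4. The follicle-poor steers had 3.24 (Casein 2), 2.64 (Casein 5), 1.94 (Casein 6), 1.67 (Casein 4) and 1.01 (Control 2). The widest gap, 2.56, lay between Control 5 and Casein 1, so 4 steers stood apart from the other 7, while the gap at the division, between Control 4 just inside and Casein 2 just outside, was 1.03. MS4A1, the B cell surface antigen CD20, ran from 26.3 to 458 CPM in follicle-rich and from 0.744 to 22.2 CPM in follicle-poor steers. CXCL13, the chemokine that draws B cells into follicles, ran from 10.1 to 806 CPM against 0.165 to 3.44 CPM. Leaving any 1 of the 5 genes out of the score moved 0 steers to the other group. In the GLP-2 injected steers, which took no part in the division, the score lay between 0.94 and 2.64 (mean 1.54 ± 0.524, n = 11), below that of Casein 2 in every animal.

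**Figure D1:**
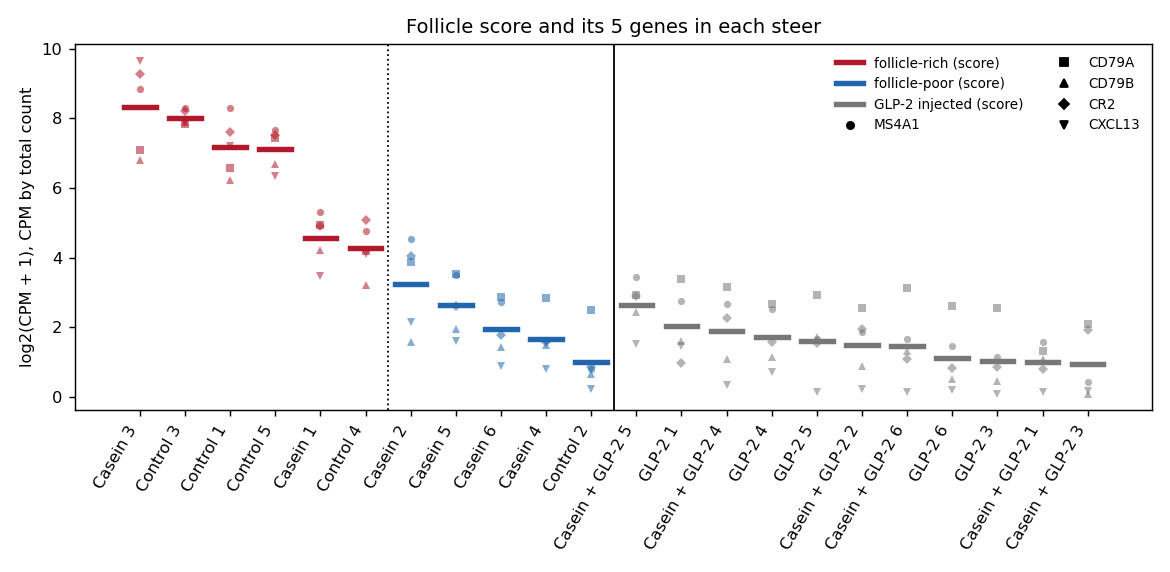
Follicle score (bars) and the log2(CPM + 1) of its 5 genes (symbols) in each of the 22 steers, ordered by score within the BSA injected and the GLP-2 injected steers. The dotted line marks the division between the 6 follicle-rich and 5 follicle-poor steers, with 4 steers above a score of 7.1 and a gap of 2.56 below them.

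Expression was then compared between the groups for 14280 genes other than the score genes, in CPM scaled by TMM, edgeR's correction for library composition. Because the groups were formed from expression in the same libraries, the differences are given as descriptions with their standard errors and without a p-value. A gene was counted as separated when the lowest steer of 1 group lay above the highest of the other and the fitted difference was at least 2-fold. Of the genes tested, 60 (0.42%) were separated and higher in follicle-rich steers and 80 (0.56%) were separated and lower. Without the minimum fold these were 108 (0.756%) and 138 (0.966%). The expression filter used the follicle groups, so a gene near 0 in 1 group could enter through its level in the other. Requiring at least 10 counts in every steer left 32 separated higher and 51 separated lower genes. Of all genes tested, 7114 (49.8%) were higher and 1146 (8.03%) at least 2-fold higher, and 1050 (7.35%) were at least 2-fold lower, and the lists below are to be read against these shares. The median log2 fold change was 2.13 for the 60 and -1.44 for the 80, against -0.003 over all genes tested. The counts of separated genes depended on single steers: without Control 4 they were 359 and 478, without Casein 2 192 and 228, and without Casein 5, farther from the division, 236 and 198. Without Casein 1 and Casein 6 the higher genes numbered 142 and 105. With the body weight block of the study design in the fit, 45 higher and 45 lower genes were counted. Only blocks 4 and 5 held steers of both groups. In each of them the follicle-rich steer was Control and the follicle-poor steer Casein. Fold changes with the block thus rest on those steers, and group and infusion cannot be told apart in them.

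B cell genes were higher in follicle-rich steers. Of 33 B cell genes tested, 30 were higher in follicle-rich steers, 23 at least 2-fold, and 9 were separated, with a median log2 fold change of 2.83. With the block the median was 1.77. The score itself consists of B cell and follicle genes, so this count is not independent of the division.

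CD180, a Toll-like receptor homologue of B cells (chromosome 20, 12417798 to 12432414, ARS-UCD1.2), was at 72.2 CPM in Casein 3, 42.0 in Control 3, 32.2 in Control 1, 38.5 in Control 5, 4.59 in Casein 1 and 6.72 in Control 4. In the follicle-poor steers it was at 0.572, 0.296, 1.40, 0.879 and 0.274 CPM, in the order of their scores. The groups did not overlap, and the log2 fold change was 5.63 ± 0.788 (SE). In FPKM, the authors' values per gene length, the means were 13.6 and 0.283.

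VPREB3, which binds immunoglobulin chains during B cell assembly (chromosome 17, 71220220 to 71222109), had 7.07, 70.2 and 174 CPM as lowest, median and highest follicle-rich values. Its follicle-poor values were 5.49, 1.78, 0.539, 0.586 and 0.182 CPM, so Casein 2 came close to Control 4 (log2 fold change 5.44 ± 0.946). FCRLA, an Fc receptor-like protein inside B cells, ran from 5.53 to 83.4 CPM in follicle-rich and from 0 to 2.17 CPM in follicle-poor steers.

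FCRL3, another Fc receptor-like gene, ran from 1.20 to 16.7 CPM in follicle-rich steers and was at 0 in Casein 2, Casein 4 and Control 2, with only 5 counts over all follicle-poor libraries. CXCR5, the receptor for CXCL13, ran from 5.87 to 96.4 CPM against 3.03 to 5.49 CPM, with 5.87 in Control 4 beside 5.49 in Casein 2. Its separation was thus narrow at the division although the log2 fold change was 3.40 ± 0.663.

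Other defining B cell genes overlapped between the groups. PAX5, the transcription factor that fixes B cell identity, was at 15.4, 24.4, 4.81 and 16.4 CPM in the 4 steers with the highest scores, at 0 in Casein 1 and at 2.74 in Control 4. Its follicle-poor values were 0 to 0.635 CPM, from 17 counts in all. Casein 1 was therefore without a PAX5 count in a library assigned to the follicle-rich group. FCER2, the low-affinity IgE receptor CD23, ran from 1.39 to 72.2 CPM against 0.182 to 2.67 CPM, and CD22, an inhibitory B cell lectin, from 17.2 to 174 CPM against 5.66 to 17.8 CPM. In both genes the overlap came from Casein 1 or Control 4.

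Of 13 germinal centre genes, 11 were higher in follicle-rich steers, 9 at least 2-fold, and 1 was separated, with a median log2 fold change of 1.64. As the mean log2 CPM of the list, the 4 steers with the highest scores lay between 5.34 and 6.17. Casein 1 (3.39) and Control 4 (3.77) lay below follicle-poor Casein 2 (3.86), and Casein 1 also below Control 2 (3.43). The separated gene was MEF2B, a transcription factor of germinal centre B cells (chromosome 7, 4095668 to 4099712). It was at 24.0, 98.4, 35.8, 57.1, 9.96 and 4.62 CPM in follicle-rich and at 3.21, 1.95, 1.40, 0.976 and 2.10 CPM in follicle-poor steers, each in the order of the scores. The log2 fold change was 4.31 ± 0.719.

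BCL6, the repressor that directs the germinal centre, ran from 19.9 to 90.0 CPM against 12.4 to 27.6 CPM and overlapped through Control 4.

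Among 11 genes of follicular stroma and lymphoid chemokines, 10 were higher in follicle-rich steers, 9 at least 2-fold, and 2 were separated (median log2 fold change 2.51, or 1.23 with the block). TNFSF13B, the B cell survival factor BAFF (chromosome 12, 83641466 to 83672595), ran from 16.3 to 39.9 CPM against 5.48 to 12.1 CPM (log2 fold change 1.33 ± 0.304). ICAM1, an adhesion molecule of activated endothelium and follicular dendritic cells, ran from 53.4 to 125 CPM against 26.5 to 47.3 CPM (1.16 ± 0.269). Both were smaller differences than those of the B cell genes named above, with little spread within groups.

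The T zone chemokines followed another order of steers. CCL21, which guides T cells and dendritic cells into lymphoid tissue, was at 229 CPM in Casein 3, 424 in Control 3 and 446.5 in Control 5, but at 12.8 in Control 1, 23.6 in Casein 1 and 13.8 in Control 4. Follicle-poor steers had 13.4, 26.9, 4.31, 4.49 and 0.548 CPM. Control 1, with the score of 7.19, therefore lay within the follicle-poor range for CCL21, as did Casein 1 and Control 4. CCL19, which binds the same receptor, was likewise at 48.4, 107 and 121.5 CPM in those 3 steers and at 2.54 in Control 1, with 0.057 in Control 4. LTB, a lymphotoxin subunit needed to build lymphoid tissue, ran from 22.3 to 298 CPM against 11.9 to 35.4 CPM and overlapped.

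T cell genes as a list showed no common direction. Of 31 tested, 14 were higher and 17 lower in follicle-rich steers, with a median log2 fold change of -0.21 (0.08 with the block). The 2 separated genes were both higher in follicle-rich steers. CCR7, the receptor for CCL19 and CCL21 (chromosome 19, 40775267 to 40786420), was at 58.7, 55.8, 14.2, 65.8, 6.24 and 9.17 CPM in follicle-rich steers and at 1.15, 3.05, 2.37, 2.54 and 3.83 CPM in follicle-poor steers (log2 fold change 3.74 ± 0.660). PDCD1, the inhibitory receptor PD-1 that follicular helper T cells carry, ran from 10.8 to 48.0 CPM against 4.31 to 7.44 CPM (1.87 ± 0.402).

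General T cell markers overlapped. CD3E, part of the T cell receptor complex, ran from 169 to 554 CPM in follicle-rich and from 245 to 656 CPM in follicle-poor steers. CD8A, the coreceptor of cytotoxic and intraepithelial T cells, ran from 27.6 to 140 CPM against 47.9 to 182 CPM (log2 fold change -0.80 ± 0.413), and CD4, the helper coreceptor, from 50.4 to 128 CPM against 43.6 to 79.9 CPM (0.69 ± 0.249). Macrophage and dendritic cell genes, 14 tested, had 0 separated and a median of -0.02 that took either sign under other scalings.

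**Figure D2:**
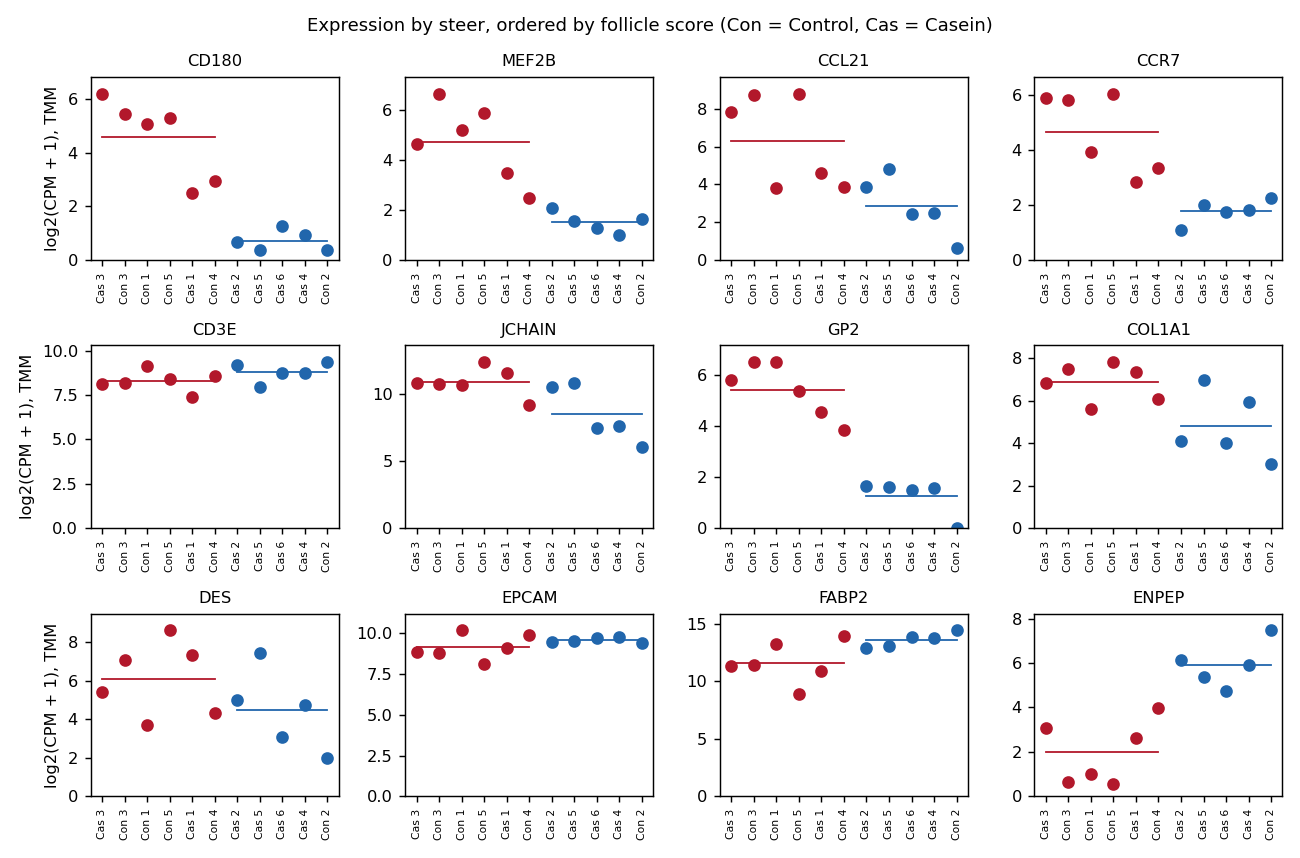
TMM-scaled log2(CPM + 1) of 12 genes in the 11 BSA injected steers, ordered by follicle score from left to right; red points are follicle-rich, blue points follicle-poor, and lines mark group means. CD180, MEF2B, CCR7 and GP2 are higher in every red point and ENPEP is lower, while CCL21, CD3E, JCHAIN, COL1A1, DES, EPCAM and FABP2 overlap.

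Genes of the epithelium above follicles were taken as a list of their own. Of 7 genes of follicle-associated epithelium and M cells, 6 were higher in follicle-rich steers, 5 at least 2-fold, and 2 were separated, with a median log2 fold change of 2.07. GP2, the M cell receptor that binds bacterial pili (chromosome 25, 17988332 to 18004842), was at 55.3, 91.2, 90.0, 41.1, 22.4 and 13.5 CPM in follicle-rich steers. In follicle-poor steers it was at 2.17, 2.08, 1.83, 1.95 and 0 CPM. Even Control 4 was above every follicle-poor steer by several fold, and the log2 fold change of 5.01 ± 0.718 was of the size seen for B cell genes.

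MARCKSL1, a membrane-associated protein enriched in this epithelium, ran from 26.2 to 148 CPM against 11.6 to 23.8 CPM (2.07 ± 0.425). CCL20, the epithelial chemokine for B cells and dendritic cells, was at 46.5, 64.0 and 63.9 CPM in Casein 3, Control 3 and Control 1 but at 8.54 in Control 5 and 4.16 in Casein 1. Its follicle-poor values reached 16.8 CPM in Control 2, the steer with the lowest score, so CCL20 overlapped.

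Villus enterocyte genes were lower in follicle-rich steers as a whole. All 35 tested had a negative log2 fold change, 28 of them at least 2-fold, and 4 were separated at that size, with a median of -1.28, where 7.35% of all genes were at least 2-fold lower. The median was -2.01 with infusion as a covariate and -1.95 without Control 4. ENPEP, a brush border aminopeptidase (chromosome 6, 14912679 to 14992464), was at 7.48, 0.578, 1.03, 0.488, 5.20 and 14.9 CPM in follicle-rich steers and at 69.4, 40.5, 25.8, 59.5 and 177 CPM in follicle-poor steers (log2 fold change -3.90 ± 0.821). PCK1, an enzyme of gluconeogenesis, ran from 1.39 to 25.2 CPM against 34.6 to 164.5 CPM (-2.68 ± 0.673).

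The remaining separated enterocyte genes act in protein digestion. ANPEP, aminopeptidase N (chromosome 21, 21195680 to 21213021), was at 314.5, 118, 63.3, 51.2, 119 and 343 CPM in follicle-rich and at 1463, 887, 592, 624 and 1386 CPM in follicle-poor steers (-2.56 ± 0.502). SLC15A1, the peptide transporter PEPT1, ran from 46.0 to 141 CPM against 228 to 514.5 CPM (-1.88 ± 0.311). The follicle-poor group held 4 Casein steers of 5, so infusion and group were partly confounded. With infusion as a covariate the log2 fold changes were -2.53 for ANPEP, -1.78 for SLC15A1, -3.96 for ENPEP and -3.15 for PCK1.

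Other absorptive genes overlapped. SI, the disaccharidase sucrase-isomaltase, ran from 185 to 866 CPM against 631 to 1930.0 CPM, and VIL1, the microvillus protein villin, from 379 to 2458 CPM against 1521 to 3461 CPM. SLC5A1, the sodium-glucose transporter, ran from 63.5 to 760.3 CPM against 260 to 1049 CPM, and ALPI, intestinal alkaline phosphatase, from 1.65 to 159.5 CPM against 13.7 to 225 CPM. Control 4 was the highest follicle-rich steer in all 4 of these genes.

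Genes of the epithelium at large differed less. Of 18 pan-epithelial genes, 16 were lower, 1 at least 2-fold, and 0 were separated (median -0.51). EPCAM, the epithelial adhesion molecule, ran from 280 to 1170.0 CPM against 673 to 888 CPM (log2 fold change -0.25 ± 0.329), and KRT8, a keratin of simple epithelia, from 738 to 2937 CPM against 1918 to 2661 CPM (-0.51 ± 0.339). Crypt and stem cell genes pointed the other way, with 12 of 14 higher, 5 at least 2-fold and 0 separated (median 0.68, or 1.29 with infusion as a covariate and 0.40 without Control 5). OLFM4, a crypt base gene, ran from 8.09 to 21.9 CPM against 1.46 to 12.7 CPM. LGR5, the stem cell receptor, was too low for the comparison, with 104 counts over the follicle-rich libraries (0 in Casein 1) and 0 counts in all 5 follicle-poor libraries, which allows up to 3 counts in each.

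**Figure D3:**
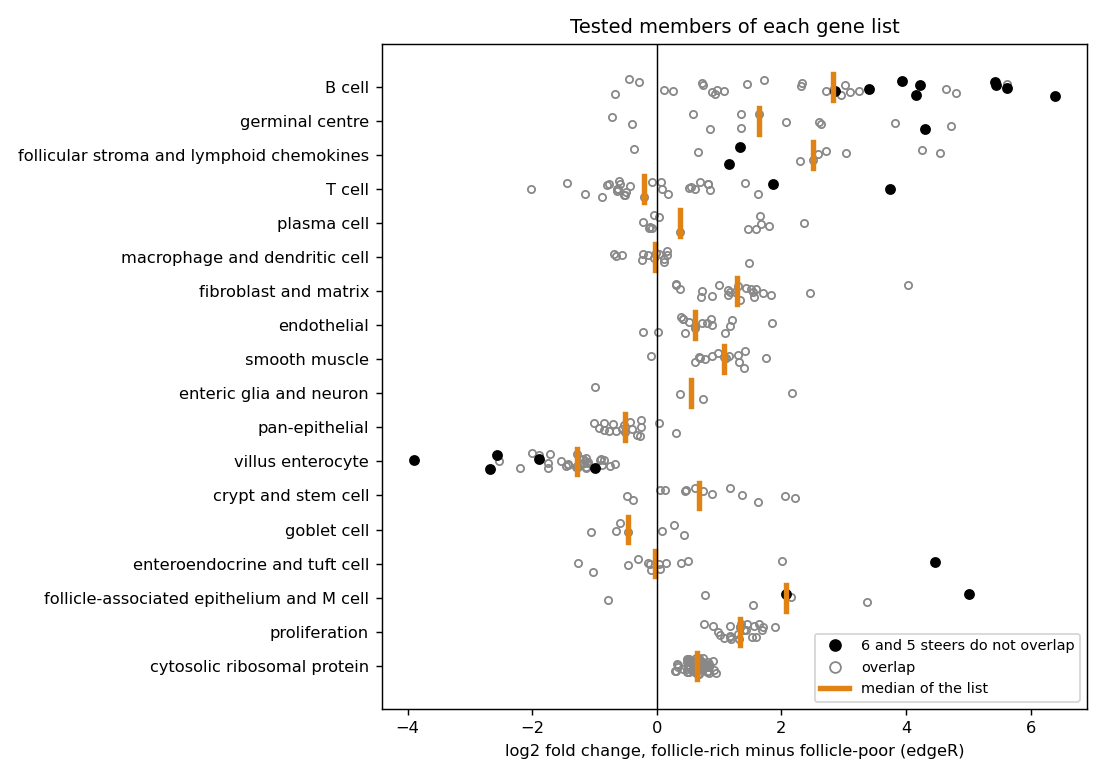
Log2 fold change between follicle-rich and follicle-poor steers (horizontal axis) of every tested member of the 18 gene lists; filled points are genes whose groups do not overlap, open points overlap, and orange bars are list medians. The medians run from 2.83 for B cell genes to -1.28 for villus enterocyte genes. The fibroblast, endothelial, smooth muscle and proliferation lists hold 0 filled points. So do the plasma cell, macrophage, glia, pan-epithelial, crypt, goblet and ribosomal protein lists. Over all genes, 0.756% were higher and 0.966% lower without overlap.

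Stromal genes were higher on average in follicle-rich steers. In these short lists 0 were separated, which is near the 0.42% of all genes that were separated and higher. All 22 fibroblast and matrix genes had a positive log2 fold change, 15 at least 2-fold, with a median of 1.28 and 0 separated. The median was 2.26 without Casein 5, 1.87 with infusion as a covariate and 0.34 with the block. COL1A1, a chain of type I collagen, ran from 48.6 to 227 CPM in follicle-rich steers, with 16.3, 125, 15.3, 60.5 and 7.03 CPM in follicle-poor steers. DCN, a proteoglycan of the matrix, ran from 17.0 to 98.7 CPM against 2.56 to 38.7 CPM. COL3A1, a chain of type III collagen, ran from 385 to 770 CPM against 44.5 to 831 CPM, with a log2 fold change of 0.70 ± 0.548 that was -0.22 with the block. Casein 5 gave the highest follicle-poor value of all 3 genes.

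Of 15 smooth muscle genes 14 were higher, 8 at least 2-fold (median 1.08), and of 17 endothelial genes 16 were higher, 4 at least 2-fold (median 0.62), each with 0 separated. DES, the intermediate filament of muscle, was at 389 CPM in Control 5 and 161 in Casein 1 but at 11.8 in Control 1 and 18.8 in Control 4. Among follicle-poor steers it was at 171 CPM in Casein 5 and between 3.01 and 30.8 CPM in the others. ACTA2, smooth muscle actin, gave the same 3 steers as the highest, with 328.5, 224.5 and 209 CPM. PECAM1, an endothelial adhesion molecule, was also highest in Control 5, Casein 1 and Casein 5, at 43.8, 33.9 and 27.8 CPM.

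The level of muscle and vessel genes was thus ordered differently from the follicle score. As the mean log2 CPM of the list, smooth muscle stood at 7.02 in Control 5, 6.19 in Casein 5 and 6.16 in Control 3, and at 3.45 in Control 1. The B cell list stood at 5.29, 2.72, 5.82 and 5.02 in the same steers. Control 1 combined follicle genes with little muscle RNA and Casein 5 the reverse. Without Casein 5 the median log2 fold change was 1.89 for the endothelial and 2.08 for the smooth muscle list, without Control 2 it was 0.33 for the endothelial list, and without Control 5 it was 0.67 for the smooth muscle list. With the block the medians were -0.29 and 0.255, and with infusion as a covariate 1.61 and 1.45. Whether the depth of scraping moved with these values was not tested.

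**Figure D4:**
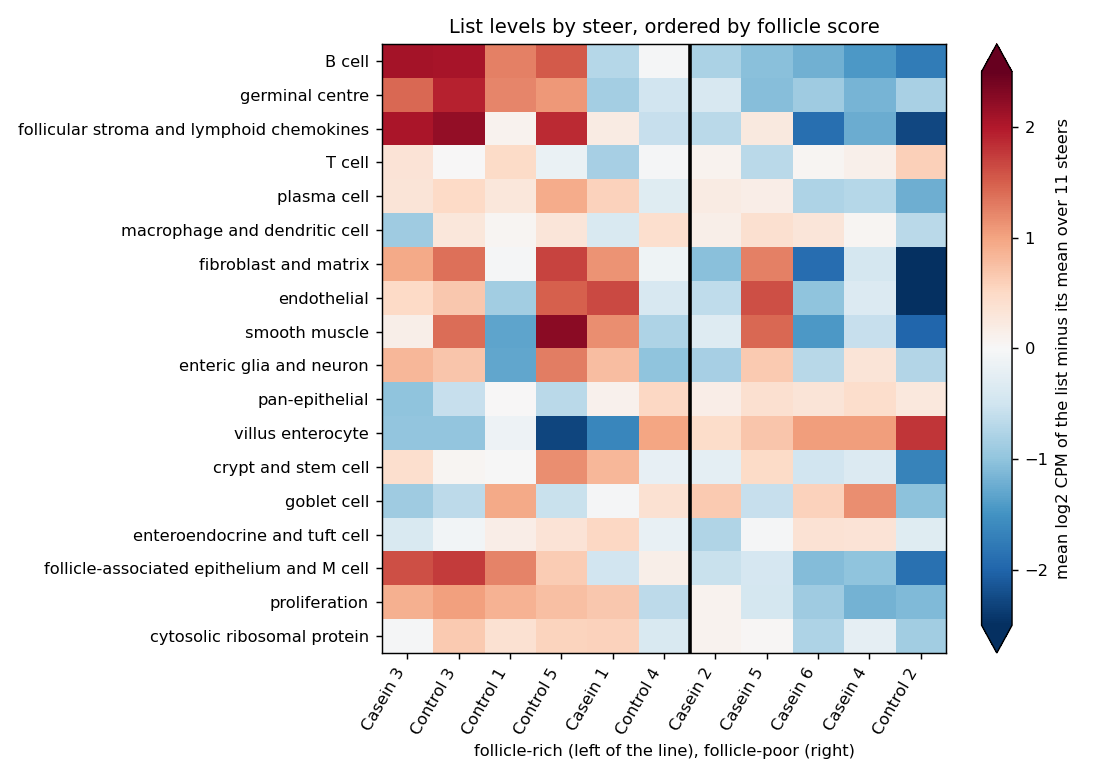
Mean log2 CPM of each gene list in the 11 BSA injected steers, minus the mean of the list over the steers (colour), with steers ordered by follicle score and the line at the division. B cell and follicle-associated epithelium rows change from left to right. Fibroblast, endothelial and smooth muscle rows are high in Control 5, Casein 1 and Casein 5 on both sides of the line. Fibroblast and smooth muscle rows are also high in Control 3.

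Cell division genes were higher in follicle-rich steers. All 24 proliferation genes had a positive log2 fold change, 21 at least 2-fold where 8.03% of all genes were, with a median of 1.34 and 0 separated. MKI67, the nuclear marker of dividing cells, was at 249, 296, 170, 323, 247 and 75.7 CPM in follicle-rich and at 122, 88.2, 77.3, 69.1 and 103 CPM in follicle-poor steers. The overlap came from Control 4, which was also the lowest follicle-rich steer of the list mean, at 4.75. All 61 cytosolic ribosomal protein genes were positive too, but none reached 2-fold (median 0.64, range 0.29 to 0.95, and 0.24 with the block). RPLP0, a protein of the ribosomal stalk, ran from 2161 to 4734 CPM against 1284 to 2662 CPM.

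Beyond the lists, 43 of the 60 separated higher genes and 76 of the 80 separated lower genes were in none of them. EHD3, which shapes recycling endosomes (chromosome 11, 68659832 to 68688786), was at 176, 188, 89.0, 121, 31.8 and 17.1 CPM in follicle-rich steers and between 1.64 and 5.72 CPM in follicle-poor steers (log2 fold change 4.67 ± 0.632). SFRP5, a secreted antagonist of Wnt signals (chromosome 26, 18914097 to 18919300), was at 54.8, 143, 41.7, 21.7, 5.46 and 4.90 CPM against 0.182 to 1.69 CPM (5.95 ± 0.982). SFRP5 was at low counts in the follicle-poor steers, 55 over the 5 libraries.

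Several others have roles in B cells or T cells. TLR10, a Toll-like receptor of B cells, ran from 4.27 to 21.8 CPM against 0.548 to 2.98 CPM (2.74 ± 0.566). TCF3, the E2A transcription factor of lymphocyte development, ran from 40.1 to 140 CPM against 16.4 to 32.3 CPM (1.62 ± 0.333). TNFRSF18, the T cell costimulatory receptor GITR, ran from 6.10 to 18.2 CPM against 2.27 to 4.02 CPM. TFEB, a regulator of lysosome genes, TCTN1, a protein of the ciliary base, and BASP1, a membrane-bound signalling protein, had log2 fold changes of 1.72 ± 0.375, 2.18 ± 0.384 and 1.60 ± 0.343.

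The separated lower genes outside the lists included transporters of epithelium. SLC1A1, a glutamate transporter, ran from 9.43 to 27.9 CPM in follicle-rich and from 46.1 to 102 CPM in follicle-poor steers (-1.90 ± 0.327). SLC4A4, a sodium bicarbonate cotransporter, ran from 3.80 to 27.5 CPM against 38.5 to 80.6 CPM (-1.87 ± 0.486). CLIC5, a protein of the actin-based projections of cells, ran from 4.56 to 37.0 CPM against 40.7 to 117 CPM (-2.30 ± 0.456), with Control 4 near Casein 2.

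DAO, D-amino acid oxidase, had a log2 fold change of -2.32 ± 0.505, from 1.17 to 14.6 CPM against 19.3 to 37.4 CPM. ARHGAP32, a GTPase activator, UHMK1, a kinase that binds RNA-processing proteins, GNAQ, a G protein subunit, and SERPINA5, a protease inhibitor, were lower by -1.97 ± 0.430, -1.93 ± 0.518, -1.89 ± 0.465 and -1.71 ± 0.389. All 4 had every follicle-poor steer above every follicle-rich steer. SLC13A1, a sulfate transporter, was below the mean level required of named genes and is named after its values were seen, as the most negative of the 80, with means of 0.795 and 36.2 CPM (-5.41 ± 0.998).

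The 11 GLP-2 injected steers, in which the division was not made, allowed a test of whether genes moved with the score. The score rested there in part on few counts. CXCL13 had 23 counts in Casein + GLP-2 5, 20 in GLP-2 1 and 15 in GLP-2 4, and 1 to 3 in the others. CD79B was at 1 count in Casein + GLP-2 3. Over a range of scores from 0.94 to 2.64, a slope of log2 expression per unit of score was fitted for 15245 genes by edgeR's quasi-likelihood test. At an adjusted p of at most 0.05 (Benjamini-Hochberg), 0 genes had a positive slope and 1 (0.00656%) a negative slope, while 1551 (10.2%) and 1732 (11.4%) did so at an unadjusted p of at most 0.05. With DESeq2's Wald test 463 and 574 genes passed the adjusted threshold. The gene called by edgeR was LAMB3, the laminin-332 chain of epithelial basement membrane (slope -1.83 ± 0.219, adjusted p = 0.0188, edgeR). Over 18 alternatives its adjusted p ran from 7.03e-11 to 0.726, the latter with the block, and in the vehicle steers it overlapped between the groups, from 19.7 to 65.1 CPM against 16.5 to 145 CPM.

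Since 0 genes of the lists passed the adjusted threshold, their slopes are given at the unadjusted one, beside the 10.2% and 11.4% of all genes. Of 29 B cell genes tested there, 18 had a positive slope and 1 a negative slope at that level. The score is B cell and follicle RNA of the same libraries, so this count is not independent of it. CD22 had a slope of 0.95 ± 0.309 and FCER2 of 1.85 ± 0.609, while CXCR5 had 0.44 ± 0.373. The germinal centre list had 4 of 13 positive and 2 negative, with MEF2B at 0.02 ± 0.354. MEF2B stayed between 0.753 and 2.21 CPM in these steers. GP2 had a slope of 1.23 ± 0.857, from 0.0678 to 3.90 CPM.

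Fibroblast and matrix genes had 15 of 22 positive slopes at the unadjusted level and 0 negative, and villus enterocyte genes had 21 of 35 negative and 0 positive. All 22 and all 35, respectively, had slopes of those signs, with medians of 1.503 and -0.82 per unit of score. DCN had a slope of 1.35 ± 0.622 and VIL1 of -0.73 ± 0.236. Pan-epithelial genes had 9 of 18 negative, proliferation genes 14 of 24 positive, and macrophage and dendritic cell genes 7 of 14 positive, with a median slope of 0.66 where the vehicle steers gave -0.02. The endothelial list had a median slope of 1.66, with 4 of 17 at the unadjusted level. Genes of a list share their libraries, so these counts are not independent observations.

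Of the 60 separated higher genes, 53 were tested in GLP-2 injected steers, where 47 (88.7%) had a positive slope. Of the 80 separated lower genes all were tested, and 70 (87.5%) had a negative slope. Over the 14169 genes tested in both sets of steers, 51.2% had a positive and 48.8% a negative slope. At the unadjusted threshold 18 of the 53 were positive and 1 was negative, and 25 of the 80 were negative. EHD3 had a slope of 1.39 ± 0.358, TLR10 of 1.31 ± 0.335, BASP1 of 1.06 ± 0.251 and CLIC5 of -0.85 ± 0.233.

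**Figure D5:**
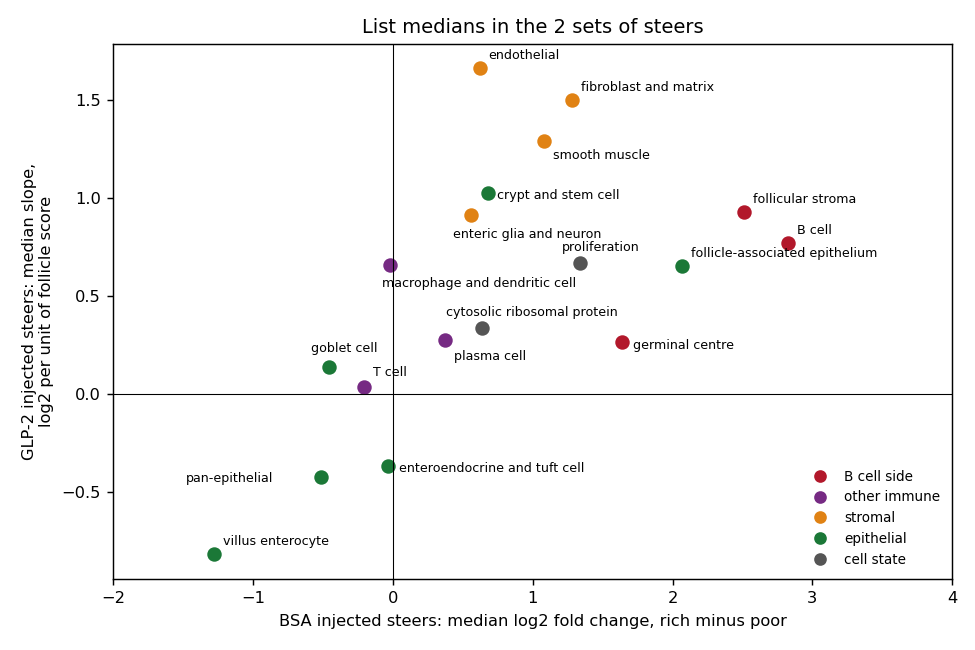
Median log2 fold change of each gene list between follicle-rich and follicle-poor BSA injected steers (horizontal axis) and median slope of the same list on the follicle score in the 11 GLP-2 injected steers (vertical axis), coloured by kind of list. B cell genes lie at 2.83 with a slope of 0.77, endothelial genes at a slope of 1.66, and villus enterocyte genes at -1.28 and -0.82.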

How the data were processed

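Strand-specific poly-A libraries of jejunal mucosa from 22 steers were analysed. The GLP-2 steer of block 2 was not analysed here. The authors aligned reads to ARS-UCD1.2 with HISAT2 2.0.5 and counted them per gene with featureCounts 1.5.0-p3. The authors deposited raw counts (27570 genes) and FPKM, which scale counts by gene length and depth, and FPKM served here for a few levels and as an alternative. Total counts ranged from 8809666 to 28447810 per library. Per the study's methods, RNA integrity varied between samples, and a control sample of low integrity was not sequenced. Integrity per steer was not used here, so whether it differed between the follicle groups was not tested.

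Counts were filtered with filterByExpr (minimum count 10), TMM-scaled and fitted with edgeR 4.0.16 in R 4.3.3 (quasi-likelihood, Benjamini-Hochberg). For the BSA injected steers the filter was given the follicle groups. The 11 BSA injected steers were fitted as follicle-rich against follicle-poor, without the 5 score genes, and the 11 GLP-2 injected steers with the score as covariate. The 18 gene lists held 388 genes, of which 368 matched a single gene identifier. Members and lists were chosen with earlier results of these data known. Named genes were a fixed set of markers, up to 4 separated genes of each list with the largest differences, 8 higher and 8 lower separated genes outside the lists with a mean log2 CPM of at least 2, and genes past the adjusted threshold in GLP-2 injected steers. FDCSP and MUC2 were in that set but not analysed here. The results of a few genes are not reported here. The procedure was checked on simulated data. Replicate numbers are the block numbers in the labels. Per the study's methods, steers were blocked by body weight in a randomized complete block design. After removing group means, 5 Control and Casein pairs of a block correlated by 0.207 on average, 0.038 at least and 0.418 at most. The 25 Control and Casein pairs from different blocks ran from -0.508 to 0.678 (mean -0.041), a range that held all 5. The block served as an alternative, whose values are given for the list medians it moved but for few named genes. With it the log2 fold changes were 0.64 for ICAM1, 0.62 for BCL6, 0.97 for TFEB, 0.92 for BASP1 and 0.96 for TNFRSF18. They were 3.58 for GP2, 3.80 for SFRP5, -1.01 for GNAQ and -1.07 for ARHGAP32. Other named genes moved as well. Sequences were not used here. Alternatives used DESeq2 1.42.0, limma 3.58.1 on log2(FPKM + 1), other scalings and filters, infusion, and leaving out steers.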

Additional observations from a re-analysis of the deposited data

Results flagged for a closer look

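Single steers that lay far from the rest of their group were looked for by Dixon's test in 174 groups, and 9 were found, where chance gives about 1 in 20. In log2(CPM + 1), Casein 5 was the highest follicle-poor steer for PAX5 (0.71), Control 2 the lowest for GP2 (0.0) and the highest for LAMB3 (7.19), and Casein 6 the highest for SI (10.92) and the lowest for TNFRSF18 (1.71). Casein 2 was the lowest follicle-poor steer for TCF3 (4.12), and Casein 1 the lowest follicle-rich steer for CD68 (4.61). Control 4 was the lowest follicle-rich steer for the mean log2 CPM of the proliferation list (4.75). Casein 5 had the highest total count of the follicle-poor group, 23666186.

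Macrophage genes differed in direction between the infusions. For C1QA, a complement chain made by macrophages, the difference of follicle-rich from follicle-poor steers in log2(CPM + 1) was 1.57 among Control and -0.83 among Casein steers. For the macrophage and dendritic cell list it was 0.95 and -0.86 in mean log2 CPM. The difference between infusions was not tested, and among Control steers it rests on Control 2 alone as the follicle-poor animal.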

How the results depend on the processing

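Of 504 alternative values of the list medians 488 moved by less than the spread between steers and 16 by more. These included leaving each of the 5 genes out of the score, which moved 0 steers and so could not change a median. The spread was also wide for some lists. For smooth muscle it was 1.34, so medians of 0.255 and 2.08 beside the reported 1.08 counted as moved by less. The sign differed from the reported one in 24 values of 6 lists, T cell, macrophage, endothelial, glia, goblet and enteroendocrine, and in 0 values of the other 12. The counts of separated genes, 60 higher and 80 lower, differed with which and how many steers were compared. With 1 steer left out they were 64 to 359 higher and 64 to 478 lower, most without Control 4. Without Casein 1 and Casein 6 the higher genes numbered 142 and 105. The counts were 192 and 228 without Casein 2, and 236 and 198 without Casein 5. They were 666 and 792 without both steers next to the division, 602 and 648 with the 4 highest scores against the follicle-poor group (chosen after seeing the data), 2473 and 2111 within Control and 859 and 1003 within Casein, in each of which fewer steers were compared. At least 10 counts in every steer gave 32 and 51, no minimum fold 108 and 138, and at least 4-fold 32 and 17. Lower genes numbered 53 with limma on log2(FPKM + 1), where the B cell median was 1.51.

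Within Control, list medians were 0.88 for macrophage and dendritic cell, 3.72 for fibroblast, 3.40 for endothelial, 3.36 for smooth muscle, 2.69 for glia, 2.66 for crypt, 1.54 for goblet, 0.47 for enteroendocrine and 1.22 for ribosomal protein genes. Within Casein the macrophage median was -0.76. The endothelial median ran from 0.33 to 1.89 when 1 steer was left out. With the replicate block, 45 genes were higher and 45 lower, and medians were 1.77 for B cell, 1.23 for follicular stroma, -0.83 for glia and -0.49 for enteroendocrine genes. That fit compares the groups within blocks 4 and 5 alone, where group and infusion coincide. The block also gave 0.08 for T cell and -0.29 for endothelial genes, and fibroblast and smooth muscle medians were 0.34 and 0.255. Infusion as a covariate gave -2.01 for villus enterocyte and 1.61 for endothelial genes.

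Genes past the adjusted threshold for the slope in GLP-2 injected steers numbered 1 higher with upper quartile scaling, 463 and 574 with DESeq2, 66 and 222 with infusion as covariate, 0 lower with the replicate block, and 1 and 2 at a threshold of 0.1. They were 0 to 171 higher and 0 to 464 lower without 1 steer, most without Casein + GLP-2 5, and 0 lower without Casein + GLP-2 4 or 3. Without the highest and the lowest score (chosen after seeing the data) they were 120 and 502. LAMB3 missed the threshold in 3 of 18 alternatives. The cause of these shifts was not tested. Genes under about 1 CPM rest on few counts at this depth, and a missing difference there was not detectable rather than absent.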

Other observations

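Plasma cells, which secrete antibody, are the descendants of follicular B cells, and their genes overlapped between the groups. Of 13 plasma cell genes 8 were higher in follicle-rich steers, 6 at least 2-fold and 0 separated, with a median log2 fold change of 0.37. JCHAIN, which joins the chains of secreted IgA, was at 1787, 1682, 1629, 5351, 3092 and 578 CPM in follicle-rich and at 1434, 1819, 171, 191 and 64.3 CPM in follicle-poor steers, in the order of the scores. Casein 2 and Casein 5 thus had JCHAIN at the level of the steers with the highest scores.

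Secretory epithelium showed little common direction. Goblet cell genes, 7 tested, had a median of -0.45 with 1 at least 2-fold lower, and 14 enteroendocrine and tuft cell genes had a median of -0.03 that took either sign under other scalings. CHGA, a granule protein of enteroendocrine cells, ran from 34.5 to 74.0 CPM in follicle-rich and from 30.9 to 80.6 CPM in follicle-poor steers. SCG2, another granule protein, was the separated gene of that list, from 0.798 to 6.11 CPM against 0 to 0.324 CPM, and the 5 follicle-poor libraries held 9 counts of it.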
